A study of Drosophila melanogaster with 2 samples.

Results

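The 42 genes described here act in the making of Drosophila muscle, as fate factors, as proteins of myoblast fusion, as parts of the sarcomere and as integrins of muscle attachment. They were taken by gene symbol from a fixed list that was drawn up with earlier results of these data known. Each of the 42 symbols was found among the 13623 genes of the table. Nuclear RNA was sequenced from 1 library of neuronal nuclei and 1 library of neural stem cell (NSC) nuclei, both captured from homogenised embryos by INTACT, in which nuclei carrying a tagged protein on their envelope are pulled down with antibody-coated beads. The neuron library came from embryos labelled 12 to 14 h after egg laying that carried the Elav-Gal4 driver, and the NSC library from embryos labelled 5 to 7 h after egg laying that carried Sca-Gal4/cyo. Both share the tag construct UAS-3xFLAG-blrp-mCherry-RanGap, a fusion of FLAG epitopes, the substrate peptide of a biotin ligase (blrp), a red fluorescent protein and RanGap of the nuclear envelope, and by the methods also the ligase BirA, all switched on by GAL4 in a w1118 stock. The tag follows the elav driver in the neuron library and the sca driver in the NSC library, so that each library is meant to hold nuclei of the cells in which that driver acts, pooled over many embryos. Cell type, embryo age and driver line differ together between the libraries and cannot be told apart. With 1 library per group there is no replicate check and no p-value, and every difference below is one between these 2 libraries.

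Muscle forms in the embryo from the mesoderm. Early transcription factors set the mesoderm and its visceral, cardiac and somatic parts, founder cells and fusion-competent myoblasts then recognise each other through immunoglobulin proteins and fuse, and the resulting fibres assemble sarcomeres from myosin thick filaments, actin thin filaments, Z-discs and M-lines. Fibres anchor to tendon cells through integrins. Several of these genes also act outside muscle, such as Mef2, kirre and rst in neurons.

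The depth, estimated from the steps of low values, was about 69.4 M mapped fragments in the neuron library and 65.1 M in the NSC library (M, 1000000). Values are FPKM, the fragments of a gene scaled to its transcript length in kilobases and to 1000000 mapped fragments, so that levels can be compared between genes. Of 8 neuron markers, 7 were at least 2-fold higher in the neuron library and none was lower, with a summed level of 522 FPKM in the neuron library and 77.8 FPKM in the NSC library. The remaining one, elav, had 77.0 FPKM in the neuron library and 46.5 FPKM in the NSC library. Without fne, the neuron marker with the highest level in the neuron library, the sums were 245 FPKM there and 67.4 FPKM in the NSC library. Of 8 NSC markers, 4 were at least 2-fold lower in the neuron library and 4 stayed within 2-fold. The 8 summed to 164 FPKM in the neuron library and 468 FPKM in the NSC library. Within 2-fold, 2 were higher in the neuron library. These were insc, with 15.5 FPKM there and 10.5 FPKM in the NSC library, and pros, with 48.8 and 47.0 FPKM.

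The first comparison asked how far the muscle genes differed between neuronal and NSC nuclei. The change of a gene is log2((neuron FPKM + 1)/(NSC FPKM + 1)). The added 1 makes differences of genes with few FPKM look smaller, and a change of 1 or more in size is called 2-fold. Of the 42 genes, 24 (57.1%) were at least 2-fold higher in the neuron library, where 20.1% of all genes in the table were. A further 3 (7.14%) were at least 2-fold lower, where 12.4% of all genes were. The median change was 1.03 over the 42 genes and 0.07 over all 13623 genes. Together the 42 genes summed to 7805 FPKM in the neuron library and 2401 FPKM in the NSC library, which was 1.17% of all FPKM in the neuron library and 0.298% in the NSC library. In the neuron library all 42 genes had at least 1 FPKM and 14 had at least 100 FPKM. In the NSC library 40 had at least 1 FPKM and 7 had at least 100 FPKM. Of all 13623 genes, 9845 had at least 1 FPKM in the neuron library and 8957 in the NSC library. Near 100 FPKM, the sarcoglycan gene Scgdelta (95.5 FPKM) stood at percentile 93.1 of all genes in the neuron library. Mlc2 (103 FPKM) stood at percentile 92.9 in the NSC library. In bulk samples such as these, fewer nuclei of a type and less RNA per nucleus cannot be told apart.

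**Figure D1:**
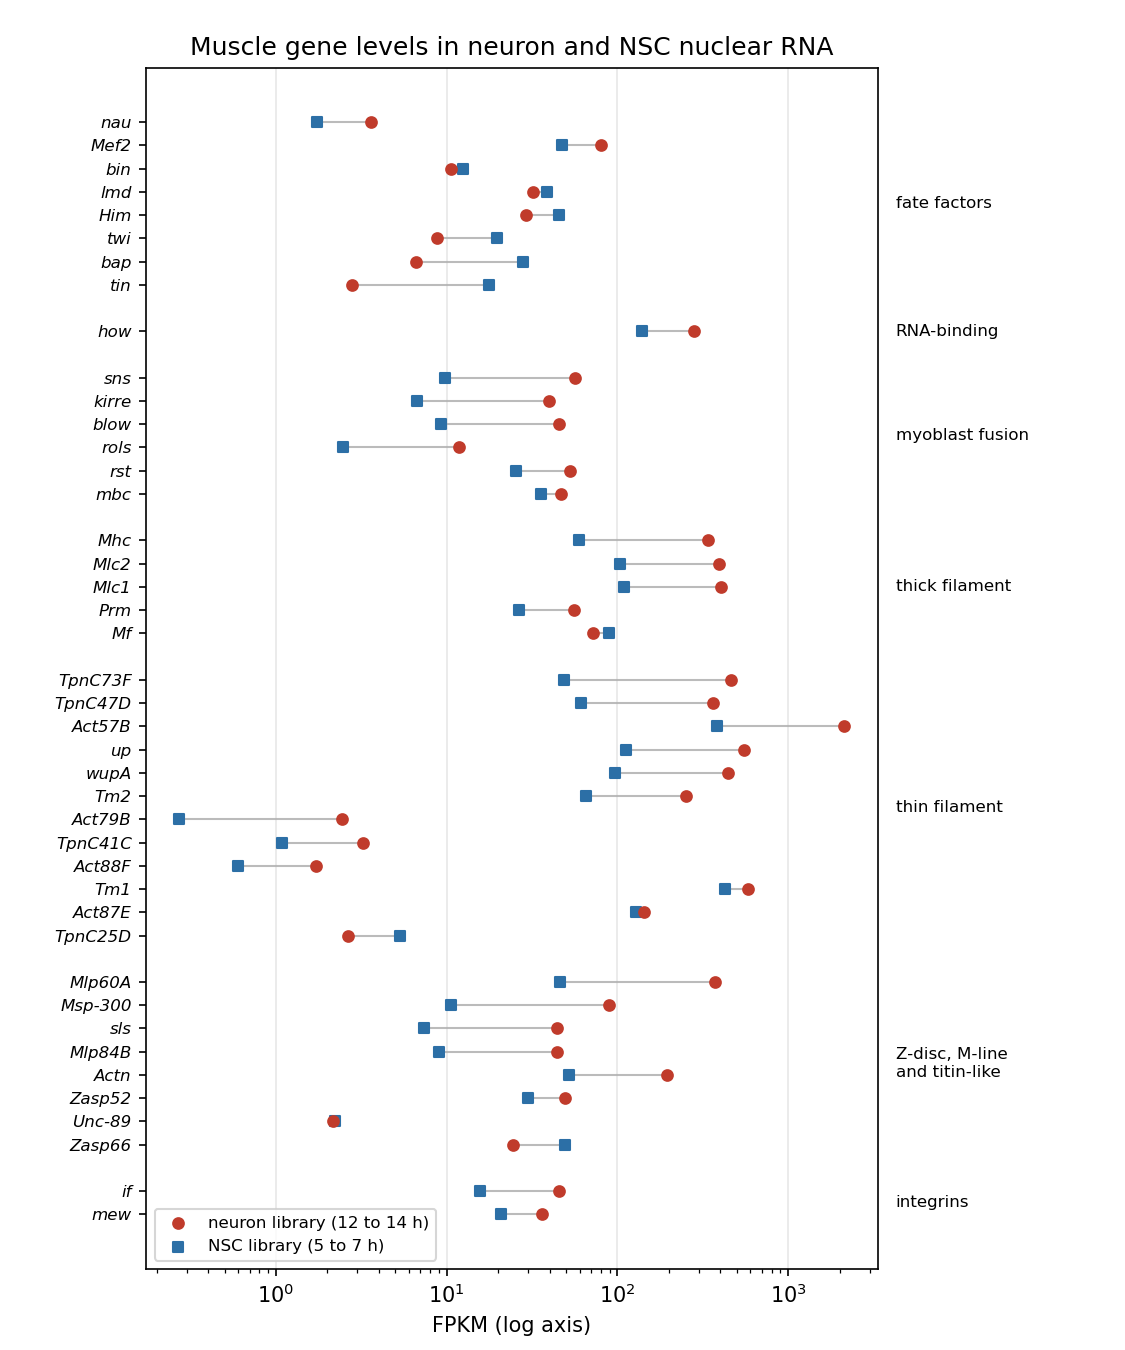
FPKM (log axis) of the 42 muscle genes in the neuron library (circles) and the NSC library (squares), 1 library each, grouped by role and joined by a line per gene. Act57B has the highest level in the neuron library (2131 FPKM), and 3 fate factors (twi, bap and tin) lie well to the left of their NSC level.

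The roles did not move alike. None of the 8 fate factors was at least 2-fold higher in the neuron library, 3 were at least 2-fold lower, and their median change was -0.44. Of the 25 sarcomere genes 17 (68%) were at least 2-fold higher, none was at least 2-fold lower, and the median change was 1.88. On FPKM alone, without the added 1, Zasp66 and TpnC25D were at 0.495 and 0.494 of their NSC level. A total of 18 sarcomere genes had a larger change than the highest fate factor, nau. The sums of FPKM separate the roles too. The fate factors summed to 173 FPKM in the neuron library and 211 FPKM in the NSC library. These sums were nearly equal shares of all FPKM, 0.0259% and 0.0262%. The sarcomere genes summed to 7015 FPKM in the neuron library and 1924 FPKM in the NSC library, or 1.05% and 0.239%. As the 2 roles were set side by side with earlier results known, the contrast is a description and was not tested. TPM scaling, in which each library is set to the same FPKM sum, adds 0.27 (log2) to each neuron to NSC ratio before the pseudocount and put the median of all genes at 0.21. Under it 2 fate factors passed 2-fold upward, while over all genes the count of higher ones was 3500, against 2735 without it. The medians were -0.18 for fate factors and 2.15 for sarcomere genes.

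**Figure D2:**
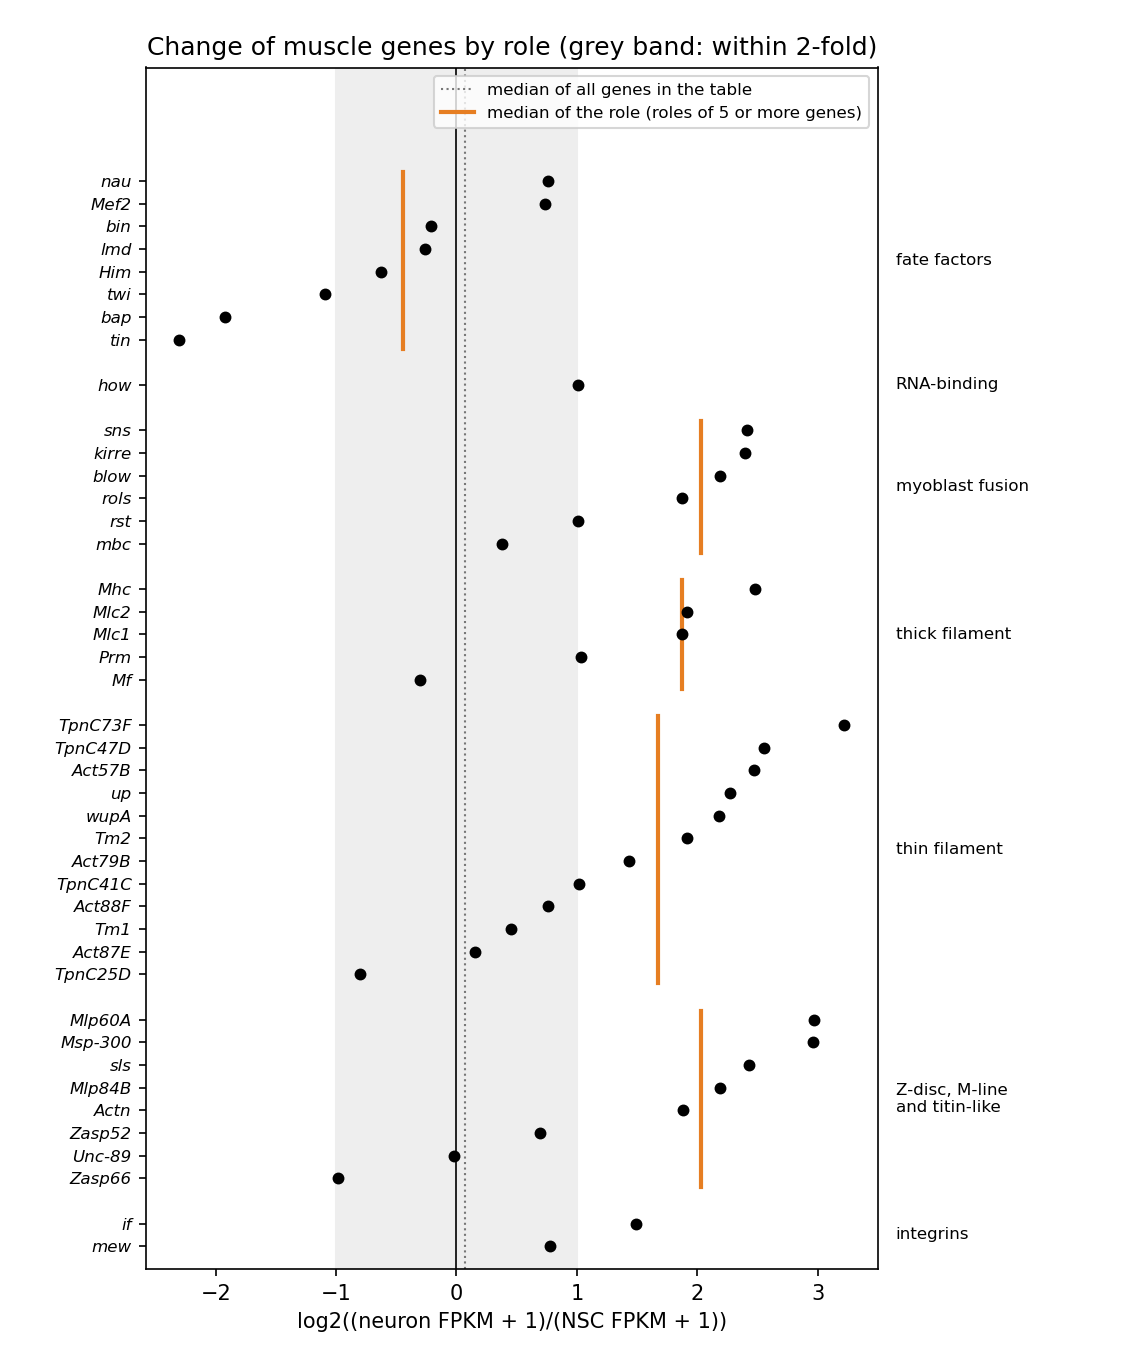
log2((neuron FPKM + 1)/(NSC FPKM + 1)) of each gene by role, with the median of each role of 5 or more genes (orange), the median of all genes in the table (dotted, 0.07) and a band for changes within 2-fold. Fate factors center on -0.44, while fusion genes (2.03) and the sarcomere roles center between 1.68 and 2.03.

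Among the fate factors, tin, bap and twi differed most. The homeobox gene tin, required for the heart and visceral mesoderm, had 2.77 FPKM in the neuron library and 17.6 FPKM in the NSC library, a change of -2.30. Its target bap, which specifies visceral mesoderm, had 6.60 FPKM in the neuron library and 27.9 FPKM in the NSC library (-1.93). The bHLH gene twi, which sets mesodermal fate at gastrulation, had 8.77 FPKM in the neuron library and 19.8 FPKM in the NSC library (-1.09), and was within 2-fold under TPM scaling (-0.86). The rank of tin among all genes was percentile 36.8 in the neuron library and 66.1 in the NSC library, a lower place that no scaling factor can move.

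The other 5 fate factors stayed within 2-fold with the added 1, although nau was at 2.09 times its NSC level on FPKM alone. Him, a nuclear inhibitor of Mef2 activity, had 29.1 FPKM in the neuron library and 45.4 FPKM in the NSC library (-0.63). The zinc finger gene lmd, which specifies fusion-competent myoblasts, had 32.0 FPKM in the neuron library and 38.5 FPKM in the NSC library (-0.26). The forkhead gene bin, a visceral mesoderm factor, had 10.6 FPKM in the neuron library and 12.5 FPKM in the NSC library (-0.22). The last 2 differences are small, and both take the opposite sign under TPM scaling (0.0009 for lmd and 0.03 for bin). Mef2, the MADS-box activator of muscle differentiation genes, was higher in the neuron library, with 79.8 FPKM there and 47.5 FPKM in the NSC library (0.74). It had the highest level of the 8 fate factors in both libraries. The MyoD homologue nau had 3.62 FPKM in the neuron library and 1.73 FPKM in the NSC library (0.76), the lowest of the 8 in the NSC library and the second lowest, above tin, in the neuron library. Both Mef2 and nau just passed 2-fold under TPM scaling (1.004 and 1.025). By the Ensembl annotation 26.4% of the exonic bases of nau also lie in exons of CG10300 on the opposite strand, and 12.2% of those of twi in an antisense-named RNA gene on its own strand. Whether the counting used strand is not given in the sources used here, so reads of these overlaps cannot be assigned with certainty. The RNA-binding gene how, which acts in muscle and tendon cells, had 282 FPKM in the neuron library and 140 FPKM in the NSC library (1.01), at the edge of 2-fold.

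Genes of myoblast fusion were higher in the neuron library as a group. Of the 6, 5 (83.3%) were at least 2-fold higher, where 20.1% of all genes were, and the median change was 2.03. The surface protein sns, which marks fusion-competent myoblasts, had 56.4 FPKM in the neuron library and 9.77 FPKM in the NSC library (2.41). Its founder cell partner kirre had 39.6 FPKM in the neuron library and 6.73 FPKM in the NSC library (2.39). The ratio of kirre to sns in FPKM was thus nearly equal, at 0.703 in the neuron library and 0.689 in the NSC library. The kirre paralog rst, which can stand in for it in founder cells, had 52.6 FPKM in the neuron library and 25.6 FPKM in the NSC library (1.01). It made up 57.0% of the FPKM of the pair in the neuron library and 79.2% in the NSC library. Inside the cell, blow, an adaptor that acts on actin at the fusion site, had 45.6 FPKM in the neuron library and 9.21 FPKM in the NSC library (2.19). The founder cell scaffold rols had 11.7 FPKM in the neuron library and 2.47 FPKM in the NSC library (1.88). The exception was mbc, a Rac exchange factor used in many tissues, with 46.8 FPKM in the neuron library and 35.7 FPKM in the NSC library (0.38).

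The thick filament genes had high levels in both libraries and were mostly several fold higher in the neuron library. The myosin heavy chain gene Mhc had 338 FPKM in the neuron library and 59.5 FPKM in the NSC library, 5.67-fold higher (log2 change 2.48). Of its light chains, the alkali chain Mlc1 had 404 FPKM in the neuron library and 110 FPKM in the NSC library (1.87). The regulatory chain Mlc2 had 392 FPKM in the neuron library and 103 FPKM in the NSC library (1.92). The light chains moved together and by less than Mhc. Mlc1 was present at 1.20 times the FPKM of Mhc in the neuron library and 1.84 times in the NSC library, and Mlc2 at 1.16 times in the neuron library and 1.73 times in the NSC library. Prm, which encodes the paramyosin of the filament core, had 55.3 FPKM in the neuron library and 26.5 FPKM in the NSC library (1.03), near the edge of 2-fold. Mf, which encodes myofilin, another protein of the thick filament, was the exception, with 71.8 FPKM in the neuron library and 88.9 FPKM in the NSC library (-0.30, or -0.04 under TPM scaling). Its level relative to Mhc was 0.213 in the neuron library and 1.49 in the NSC library.

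In the thin filament, the troponin, tropomyosin and actin genes differed by isoform. The troponin T gene up had 549 FPKM in the neuron library and 113 FPKM in the NSC library (2.27). The troponin I gene wupA had 442 FPKM in the neuron library and 96.6 FPKM in the NSC library (2.18). These subunits of 1 complex kept a ratio of 1.24 (up to wupA) in the neuron library and 1.17 in the NSC library.

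Among the 42 genes are 4 of troponin C, the calcium-binding subunit, and 2 of these made up nearly all of their FPKM in both libraries. TpnC73F had 460 FPKM in the neuron library and 48.4 FPKM in the NSC library, 9.50-fold higher and with a log2 change of 3.22 the largest of the 42 genes. TpnC47D had 365 FPKM in the neuron library and 61.1 FPKM in the NSC library (2.56). The order of the 2 thus differed, with TpnC73F at 55.4% of the FPKM of these 4 genes in the neuron library and 41.8% in the NSC library. TpnC25D, by contrast, had 2.63 FPKM in the neuron library and 5.32 FPKM in the NSC library (-0.80). TpnC41C, known mainly from adult muscle, had 3.22 FPKM in the neuron library and 1.08 FPKM in the NSC library (1.02). On FPKM alone TpnC25D was at 0.494 of its NSC level (95% counting interval 0.413 to 0.590) and TpnC41C at 2.97 times (2.41 to 3.69). These intervals use estimated fragments and the exact Clopper-Pearson method, and cover counting error only. The 4 genes summed to 831 FPKM in the neuron library and 116 FPKM in the NSC library, a 7.17-fold difference.

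The muscle actins were dominated by Act57B, an actin of embryonic and larval body wall muscle. It had 2131 FPKM in the neuron library and 382 FPKM in the NSC library (2.48), the highest level of the 42 genes in the neuron library. Act87E, also a larval muscle actin, had 143 FPKM in the neuron library and 128 FPKM in the NSC library (0.16). The share of Act57B in the summed FPKM of the 4 muscle actins was accordingly 93.5% in the neuron library and 74.8% in the NSC library. The actins of adult muscles were near the lower end of detection. Act79B, of adult leg and other tubular muscles, had 2.44 FPKM in the neuron library and 0.272 FPKM in the NSC library (1.44). Its NSC value rested on about 25 estimated fragments, and its FPKM ratio was 8.98 (counting interval 5.93 to 14.1). Act88F, the flight muscle actin, had 1.72 FPKM in the neuron library and 0.602 FPKM in the NSC library (0.76), with a ratio of 2.85 (2.09 to 3.95). Actin genes share long stretches of near-identical coding sequence, and only uniquely mapped reads were used, so that their values are uncertain. The cytoplasmic actin Act5C had 1932 FPKM in the neuron library and 2707 FPKM in the NSC library (-0.49), and Act42A had 755 FPKM in the neuron library and 375 FPKM in the NSC library (1.01). Per length, Act57B therefore stood above Act5C in the neuron library and below it in the NSC library.

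Of the tropomyosin genes, Tm2 had 250 FPKM in the neuron library and 65.6 FPKM in the NSC library (1.92). Tm1, which also makes cytoskeletal isoforms outside muscle, had 585 FPKM in the neuron library and 427 FPKM in the NSC library (0.45). Gene level FPKM cannot separate muscle from cytoskeletal isoforms of Tm1. Tm1 was the highest of the 42 genes in the NSC library and the second highest in the neuron library, and its share of the pair was 70.0% in the neuron library and 86.7% in the NSC library.

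**Figure D3:**
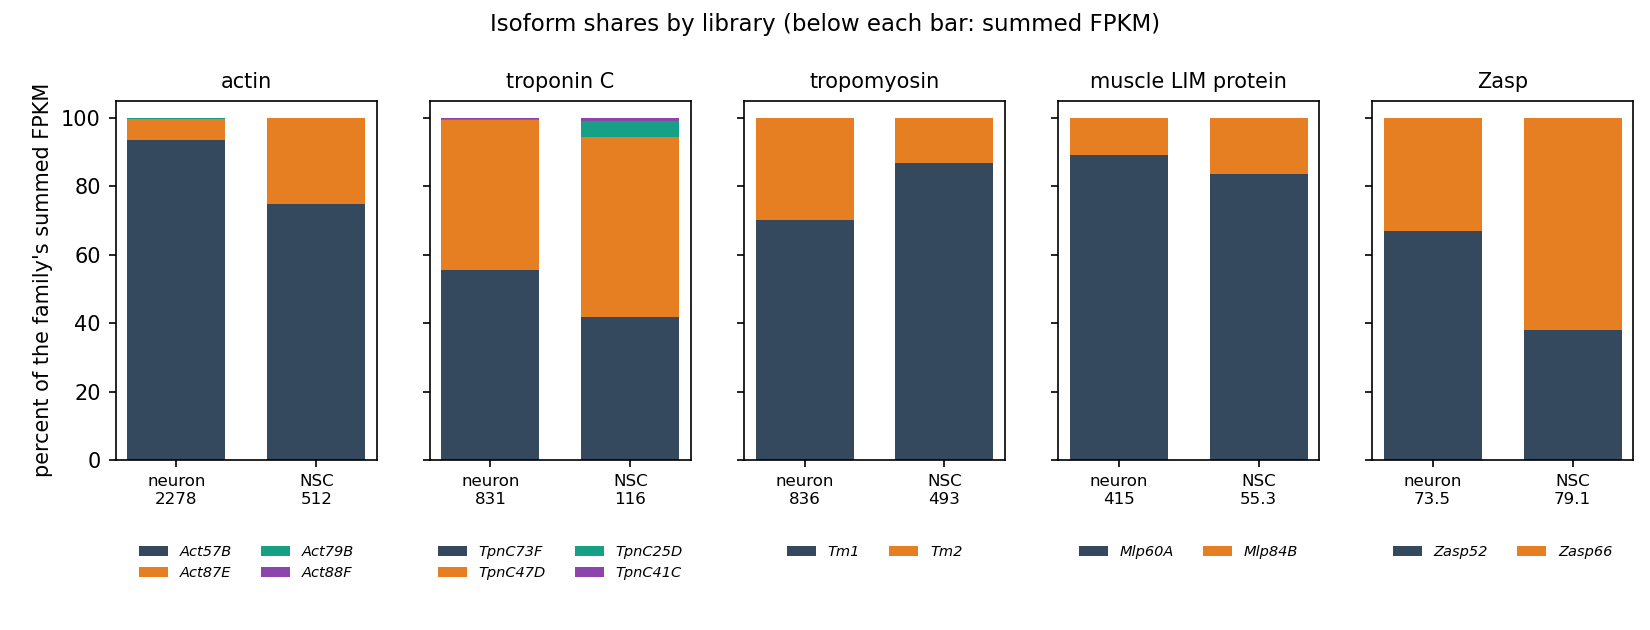
Share of each gene in the summed FPKM of its family among the 42 genes (vertical axis, percent). The left bar is the neuron library and the right bar the NSC library, with the summed FPKM under each bar. Act57B takes 93.5% of the muscle actins in the neuron library and 74.8% in the NSC library, and Zasp52 takes 66.9% of the Zasp pair in the neuron library and 37.8% in the NSC library.

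Genes of the Z-disc, the M-line and the titin-like proteins held both some of the largest differences and some of the smallest. The muscle LIM protein gene Mlp60A had 371 FPKM in the neuron library and 46.3 FPKM in the NSC library (2.97). Its paralog Mlp84B, a Z-disc protein, had 44.6 FPKM in the neuron library and 9.01 FPKM in the NSC library (2.19). Msp-300, a nesprin that positions muscle nuclei, had 89.2 FPKM in the neuron library and 10.6 FPKM in the NSC library (2.96). It was close to Mlp60A in its change, and these 2 came next after TpnC73F among the 42 genes. The titin-like gene sls had 44.1 FPKM in the neuron library and 7.35 FPKM in the NSC library (2.43). Actn, the alpha-actinin that crosslinks thin filaments at the Z-disc, had 194 FPKM in the neuron library and 52.0 FPKM in the NSC library (1.88), although 15.7% of its exonic bases also lie in exons of east on the opposite strand. The M-line gene Unc-89, the fly obscurin, had 2.16 FPKM in the neuron library and 2.20 FPKM in the NSC library (-0.02), and took the opposite sign under TPM scaling (0.18). Its FPKM ratio of 0.982 has a counting interval of 0.921 to 1.05, which covers counting error only and not the choice of scaling. Relative to sls its level was 0.0490 in the neuron library and 0.300 in the NSC library.

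The genes Zasp52 and Zasp66, which encode PDZ proteins of the Z-disc, moved apart. Zasp52 had 49.2 FPKM in the neuron library and 30.0 FPKM in the NSC library (0.70). Zasp66 had 24.3 FPKM in the neuron library and 49.2 FPKM in the NSC library (-0.99). This is just inside 2-fold with the added 1, and 0.495 of its NSC level on FPKM alone. The sum of the pair was 73.5 FPKM in the neuron library and 79.1 FPKM in the NSC library, so that the members exchanged order at a nearly equal total.

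The attachment integrins were both higher in the neuron library. The gene if encodes the alpha subunit on the muscle side of the attachment and had 45.8 FPKM in the neuron library and 15.7 FPKM in the NSC library (1.49). The gene mew encodes the alpha subunit on the tendon and epidermal side and had 36.3 FPKM in the neuron library and 20.8 FPKM in the NSC library (0.78), within 2-fold but past it under TPM scaling (1.04). The muscle side subunit was thus the higher of the 2 in the neuron library and the lower in the NSC library.

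Rank within a library gives levels on a scale that no scaling factor moves. It also depends on the rest of the table, where the median gene had 8.76 FPKM in the neuron library and 5.28 FPKM in the NSC library. At nearly equal FPKM, Unc-89 thus stood at percentile 34.2 in the neuron library and 41.3 in the NSC library. The median sarcomere gene stood at percentile 95.7 of all genes in the neuron library and 83.7 in the NSC library. The median fate factor stood at 51.8 in the neuron library and 71.1 in the NSC library. Sarcomere transcripts were therefore far from absent in the NSC library. There 18 of the 25 genes had at least 10 FPKM, and 6 had at least 100 FPKM. For scale, sns at 9.77 FPKM stood there at percentile 57.0 of all genes, and Mlc2 at 103 FPKM at 92.9. In the NSC library Mhc stood at percentile 86.3 and Act57B at 98.2, whereas the adult muscle actins Act88F and Act79B stood at 29.8 and 23.0.

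Other genes of the same pathways were then set beside the 42. Of 25 other contractile, costamere and calcium handling genes, 14 (56%) were at least 2-fold higher in the neuron library, with a median change of 1.27. A further 1 (4%) was at least 2-fold lower. In the whole table the shares past 2-fold were 20.1% upward and 12.4% downward. The arginine kinase gene Argk had 1014 FPKM in the neuron library and 45.7 FPKM in the NSC library (4.44). The kinase gene Strn-Mlck had 70.5 FPKM in the neuron library and 4.01 FPKM in the NSC library (3.84). At the other end Scgdelta, a sarcoglycan gene, had 95.5 FPKM in the neuron library and 207 FPKM in the NSC library (-1.11). Among the sarcomere members the share of higher genes was 68%. Of the 5 tendon and attachment site genes, 4 were at least 2-fold higher and none lower, with a median of 3.05. The attachment protein gene Tig had 212 FPKM in the neuron library and 9.43 FPKM in the NSC library (4.35). The tendon cell factor sr had 16.6 FPKM in the neuron library and 1.11 FPKM in the NSC library (3.06).

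The other fusion genes gave a different picture from the fusion members. Of 12, mostly regulators of actin that many cells use, 1 (8.33%) was at least 2-fold higher, 1 (8.33%) was at least 2-fold lower, and the median was 0.04. Both shares lay below those of the whole table, 20.1% upward and 12.4% downward. The higher one was hbs, a paralog of sns, with 29.1 FPKM in the neuron library and 12.0 FPKM in the NSC library (1.21). The lower one was HSPC300, with 92.4 FPKM in the neuron library and 190 FPKM in the NSC library (-1.04). The changes of mbc (0.38) and rst (1.01) lay within the range of these 12 genes, whereas those of sns, kirre, blow and rols lay above it. The other 25 mesoderm and muscle identity factors were spread in both directions, with a median of 0.80. Of them 9 (36%) were at least 2-fold higher and 6 (24%) passed 2-fold downward, both above the shares of the whole table. The bHLH gene Hand, of heart and visceral muscle, had 51.0 FPKM in the neuron library and 2.95 FPKM in the NSC library (3.72). The homeobox gene lbl, of muscle identity, had 7.44 FPKM in the neuron library and 0.674 FPKM in the NSC library (2.33). Doc3 and Doc1, T-box genes of the dorsal mesoderm and amnioserosa, were lowest. Doc3 had 4.76 FPKM in the neuron library and 35.0 FPKM in the NSC library (-2.65), and Doc1 had 10.7 FPKM in the neuron library and 48.7 FPKM in the NSC library (-2.08).

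**Figure D4:**
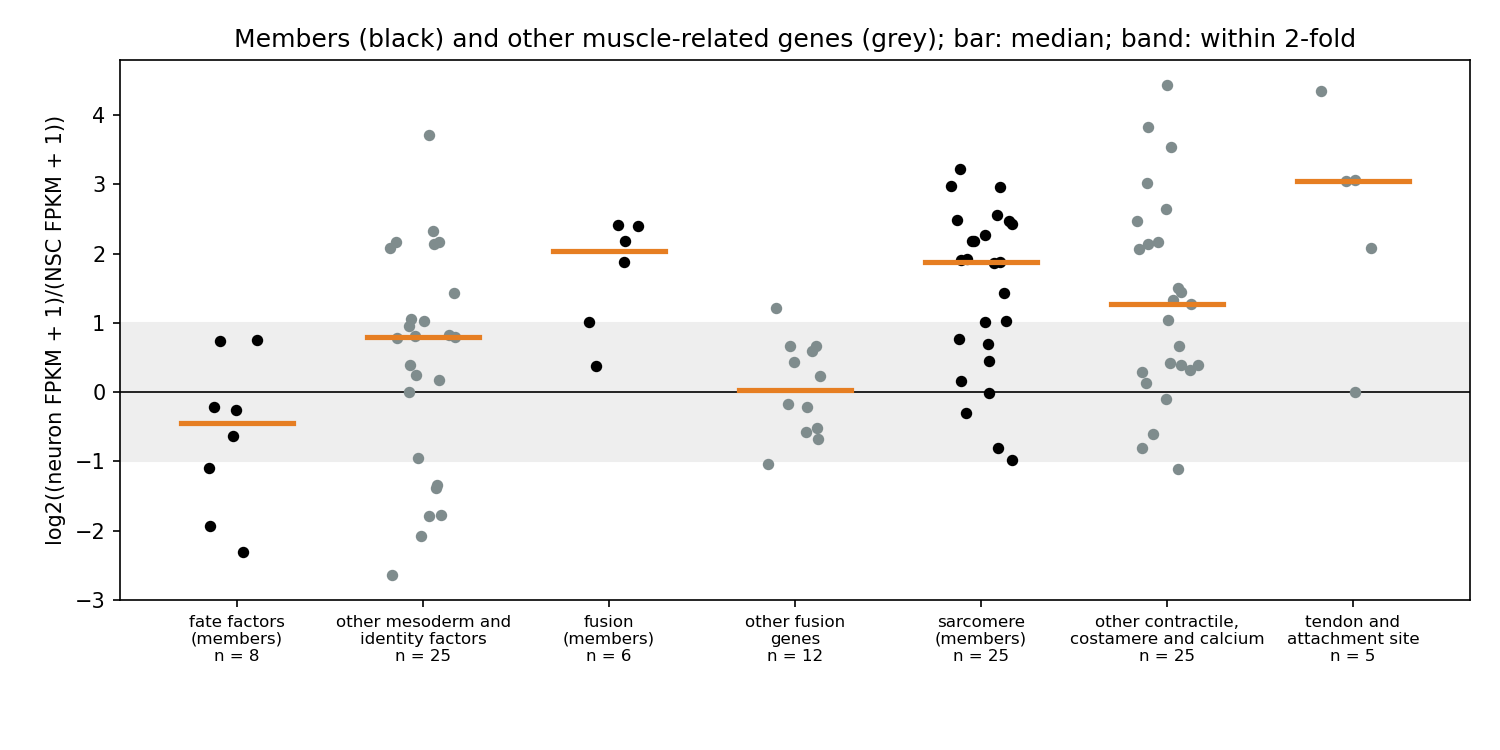
log2((neuron FPKM + 1)/(NSC FPKM + 1)) of the member roles (black) and of other muscle-related lists (grey), 1 point per gene, with the median as a bar and a band for changes within 2-fold. Sarcomere members (median 1.88) and other contractile genes (1.27) lie mostly above 0, the other fusion genes center on 0.04, and the fate factors on -0.44.

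Markers of further cell types were mixed, with median changes of 2.14 for the tracheal, 0.38 for the hemocyte, 0.86 for the glial and 0.07 for the visceral and cardiac list. Of 6 tracheal markers 4 (66.7%) were at least 2-fold higher in the neuron library and 1 (16.7%) was at least 2-fold lower. Over all genes in the table these shares were 20.1% and 12.4%. The tracheal markers summed to 930 FPKM in the neuron library and 145 FPKM in the NSC library. Of 8 hemocyte markers 3 (37.5%) were at least 2-fold higher and none was at least 2-fold lower. The 8 summed to 731 FPKM in the neuron library and 146 FPKM in the NSC library. The 3 higher ones were Pxn and the collagen IV genes Cg25C and vkg, whereas the other 5 stayed within 2-fold. Among these, the fate factor srp had 51.9 FPKM in the neuron library and 37.6 FPKM in the NSC library, and the receptor gene crq had 31.5 FPKM in the neuron library and 28.8 FPKM in the NSC library. Lower levels were found for nimC1 (1.33 FPKM in the neuron library and 0.882 FPKM in the NSC library), Hml (0.491 FPKM in the neuron library and 0.614 FPKM in the NSC library) and eater (0.0324 FPKM in the neuron library and 0.0548 FPKM in the NSC library). Of 7 glial markers 3 (42.9%) were at least 2-fold higher and none was at least 2-fold lower. The 7 summed to 365 FPKM in the neuron library and 207 FPKM in the NSC library. Of 6 visceral and cardiac muscle markers 3 were higher and 3 lower, with summed levels of 409 FPKM in the neuron library and 99.4 FPKM in the NSC library. Without Fas3, its highest gene in the neuron library, the sums were 74.7 FPKM in the neuron library and 70.8 FPKM in the NSC library. Leaving out the highest gene of the tracheal list likewise gave 598 FPKM in the neuron library and 118 FPKM in the NSC library. For the hemocyte list the sums were then 364 and 96.8 FPKM, and for the glial list 184 and 105 FPKM. No gene of these lists was at 0 in either library. The part of such cells in the muscle values was not tested.

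Longer genes were more often higher in the neuron library across the whole table. Among the genes in the longest quintile by genomic span, 40.3% were at least 2-fold higher, compared with 9.32% in the shortest quintile. Of the 42 muscle genes 23 are in the longest quintile and none in the shortest. Spearman's correlation of change with span was 0.12 over the 42 genes and -0.07 over the 25 sarcomere genes, as a description over genes that share the same 2 libraries. By quintile, 7 of 12 sarcomere members in the longest were at least 2-fold higher, 6 of 6 in the next (22.4% of all genes there), 3 of 6 in the middle one (17.0% of all genes) and the only 1 in the quintile above the shortest (11.5% of all genes). The part of gene length in the muscle values was not tested. The 42 genes lie on all major chromosome arms, with 14 on 3R, 10 on 2R, 8 on X, 7 on 3L and 3 on 2L.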

How the data were processed

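Nuclear RNA was sequenced on the Illumina HiSeq2000 from 1 neuron and 1 NSC library. The authors aligned reads with TopHat 1.3.1 to FlyBase transcripts (labels: dm3) and ran Cuffdiff 1.3.0 on uniquely mapped reads. FPKM values are as deposited, 1 per gene and library. Per the labels embryos were cross-linked, per the methods not for RNA, and the ages do not add up with the stated ageing times. Read length and strandedness are not given in the sources used here.

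Repeated header lines were removed. No filter on low values was applied, since it would keep genes through the library in which they are high. Groups came from the labels. Without replicates no test was run, and FPKM are not counts. Depth was the number of fragments at which FPKM below 0.1, times exonic length less 200 bp, came closest to whole numbers. Fragments per gene are approximate, because lengths, overlaps and arms are those of BDGP6 in Ensembl release 115, not the authors' assembly, and no coordinates are given. Of 13623 symbols 11036 matched it directly and 2429 through a synonym. The scripts were tested on simulated data. All 42 members are named, and of each other list at most 2 genes with the highest and 2 with the lowest change, besides vkg, srp, crq and nimC1, which were named after their values were seen. Members and lists were chosen with earlier results of these data known. Alternatives were pseudocounts of 0.1 and 5, 3 scalings, 2 filters on FPKM, and, chosen after seeing the data, a minimum of 1000 estimated fragments and leaving out the 11 members whose exons overlap another gene. Sequences were not analysed here. Python 3.11.15, pandas 2.3.3, numpy 2.4.6 and scipy 1.17.1 were used.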

Additional observations from a re-analysis of the deposited data

How the results depend on the processing

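The count of higher genes past 2-fold (19 to 28 of the members used) and that of lower genes (2 to 4) stayed within 1.5 times the reported 24 and 3 under each alternative. The counts over all 13623 genes moved as well. By the reported setting 2735 were higher and 1684 lower. With a pseudocount of 0.1 they were 4054 and 2161, with 5 they were 1631 and 1199, and under TPM scaling 3500 and 1198. The median change of the sarcomere genes lay between 1.82 and 2.15 and that of the fate factors between -0.63 and -0.18, without a change of sign. The median of all members was 0.92, under 2-fold, with a pseudocount of 5, which pulls low genes toward 0. With a pseudocount of 0.1, 1 fate factor (nau) was at least 2-fold higher and 1 sarcomere gene (Zasp66) at least 2-fold lower, against none by the reported setting, and TPM scaling gave 2 higher fate factors (Mef2 and nau). Of single genes, 6 (twi, how, rst, Prm, TpnC41C and Act79B) fell within 2-fold with a pseudocount of 5, and 1 (twi) under TPM scaling. Passing 2-fold were 3 genes with a pseudocount of 0.1 and 4 under TPM scaling. Median ratio and upper quartile scaling changed no call among the 42 genes. Among the other lists TPM scaling raised the identity factors past 2-fold upward to 14 of 25. It left none past 2-fold downward among the other fusion and the other contractile genes. No paired analysis was possible because each group has 1 library. With 1 library per group the spread between preparations is unknown, and depth limits mainly Act79B, Act88F and TpnC41C, whose NSC values rest on about 25, 55 and 119 estimated fragments.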
